A study of Mus musculus with 2 samples.

Results

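The aminoacyl-tRNA synthetases are the enzymes that join each amino acid to its tRNA before translation. They were followed in 2 mouse tumours. A list of 36 synthetase genes, 20 cytosolic and 16 mitochondrial, was matched to the gene names printed on the array. Of these names 28 were found (17 cytosolic and 11 mitochondrial), among 21589 genes with a symbol on the array, and they were represented by 58 probes.

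The tumours were grown from RMS3, listed as a PRMS cell line with the abbreviation unexplained. Each began as 1000000 cells in 200 µl of buffered saline placed under the skin of a C57BL/6J mouse (sex given as male) and was collected after 2 weeks. One protocol sentence calls the harvested tumours metastatic, while the title and source labels describe subcutaneous tumours. No genetic alteration of the line or the host, no age and no treatment is given in the labels, nor whether the tumours came from separate mice. Both arrays therefore belong to 1 group without a control, and the only comparison is tumour 2 against tumour 1. Nothing replicates that difference, so p-values are not given, and precision is limited by having 2 arrays.

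Each synthetase recognises its own amino acid, activates it with ATP and transfers it to the end of the matching tRNA. Cytosol and mitochondria mostly use separate enzymes encoded by separate nuclear genes, but glycyl- and lysyl-tRNA synthetase serve both compartments from 1 gene each. Several cytosolic enzymes are held together in the multisynthetase complex on the scaffold proteins Aimp1, Aimp2 and Eef1e1. Many cytosolic synthetase genes are known targets of Atf4, the transcription factor of the amino acid and integrated stress responses, and tryptophanyl-tRNA synthetase is also known as an interferon-induced gene.

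The letters upstream of 3 cytosolic members are shown because they hold the short motif TGATGNAA, an element through which Atf4 and C/EBP factors act on amino acid response genes. The windows ran from 250 bases before to 50 bases after the transcription start in RefSeq (build GRCm38.p6), and both strands were searched. Capitals mark the motif, which here lies on the opposite strand, and each stretch is written 5′ to 3′ along the gene. The stretch of Aars is chr8:111033704-111033763 on the plus strand, that of Gars is chr6:55037945-55038000 on the plus strand, and that of Tars is chr15:11399659-11399699 on the minus strand.
Aars: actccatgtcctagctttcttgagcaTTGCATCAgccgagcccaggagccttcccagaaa
Gars: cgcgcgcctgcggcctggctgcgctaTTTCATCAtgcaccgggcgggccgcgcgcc
Tars: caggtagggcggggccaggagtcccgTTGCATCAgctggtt

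Windows were found for 27 of the 36 members. The motif TGATGNAA was present in 5 of 13 cytosolic members (Aars, Gars, Iars, Tars and Yars) and in 0 of 14 mitochondrial members, while 4.51% of 27025 genes held it. The interferon-stimulated element (ISRE) was found in Qars only, against 3.99% of genes. The gamma-activated site TTCNNNGAA was found in Aars, Kars and Nars2, against 9.55% of genes. These matches describe letters in the window and are no evidence of binding. The log2 differences (tumour 2 minus tumour 1) of the 5 members with TGATGNAA ran from -0.05 (Tars) to 0.33 (Yars).

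A level below is the log2 signal less the 75th percentile over the spots used on that array (995 in tumour 1 and 901.9 in tumour 2), and a difference is tumour 2 minus tumour 1 on that log2 scale. Levels can be set side by side between tumours but not between probes or genes. The first array carried 1128 outlier-flagged spots in bands, the second 69. Of 43379 spots for transcripts, 27.8% were flagged or lay within 2 rows and columns of a flag or, on the second array, near a spot of high local background, and they were left out. Signals were well above background at 62.3% of spots in tumour 1 and 66.1% in tumour 2. Repeat spots of 186 probes gave a standard deviation (SD) of 0.23 for the difference of 1 spot away from flags, a technical error within the arrays, and 0.61 when spots near flags were kept.

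The synthetases were transcribed in both tumours. Away from flags 24 members had spots, and all 24 were well above background on both arrays, where 67.2% of all genes were. Of them 18 were higher in tumour 2, whereas 51.0% of all 11808 genes measured were. Their median difference was 0.24 (range -0.47 to 1.26, SD 0.44 across members), against 0.01 over all genes. The direction of small differences depends on the scale. With the 75th percentile taken over all spots for transcripts, flagged ones included (894.5 and 947.8), differences of the same spots were lower by about the size of the spot error. Then 12 of 24 members were higher in tumour 2, against 28.3% of all genes, and the medians were 0.02 for members and -0.22 for all genes. On either scale 18 of 24 members lay above the median of all genes, which could not differ since the scales part by a constant. The differences of single members were mostly small. In 10 members they did not exceed the repeat-spot SD, in 12 they exceeded it towards tumour 2 and in 2 towards tumour 1. Of all genes 27.8% and 26.3% exceeded it in those directions. On the scale over all spots members such as Dars (0.16) and Yars (0.10) no longer exceeded it. Cars (-0.40) and Qars (-0.35), among others, then exceeded it towards tumour 1. The counts above and the fold counts that follow are on the scale over the spots used. At least 1.5-fold higher in tumour 2 were 4 members (Mars, Wars, Lars2 and the probes named Vars2), where 8.90% of all genes passed that fold. None was 1.5-fold higher in tumour 1, against 9.02%. At least 2-fold higher in tumour 2 were Wars and Lars2, 2 members against 2.57% of all genes, and 0 were 2-fold higher in tumour 1, against 2.52%.

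**Figure D1:**
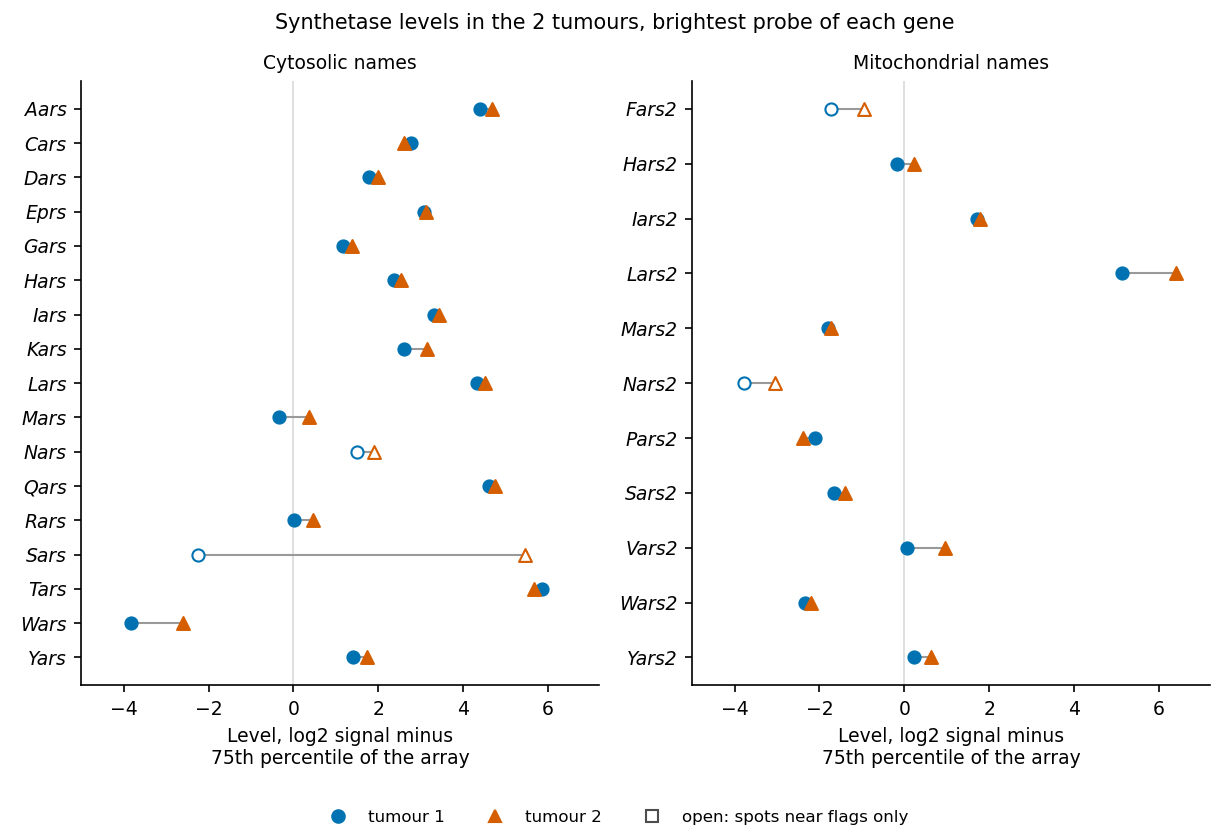
Level of each synthetase in both tumours at its brightest probe (x axis, log2 signal minus the 75th percentile of the array; circles tumour 1, triangles tumour 2), cytosolic names on the left and mitochondrial names on the right. Open symbols are genes with spots near flags only. Wars, Lars2, Mars and the probes named Vars2 show the wider gaps among filled symbols, and Sars, an open symbol, moves from -2.24 to 5.45.

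Names and transcripts did not always match. The 2 probes named Vars2 carry the RefSeq accession of Vars, the cytosolic valyl-tRNA synthetase, and the probe named Hars2 carries that of Dtd1, an enzyme that removes D-amino acids from tRNA and is no synthetase. The 8 members missing by name (Farsa, Farsb, Vars, Aars2, Cars2, Ears2, Rars2 and Tars2) were all on the array under older names or the wrong one. With probes assigned by accession or synonym, 29 members were measured away from flags. Of these 20 were higher in tumour 2 (69.0%), against 51.1% of all genes assigned the same way, with a median difference of 0.22. On the scale over all spots, 14 of the 29 were.

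Among the cytosolic enzymes, 15 were measured by name, 11 of them higher in tumour 2 with a median difference of 0.21. By accession there were 17, of which 12 were higher, with the same median of 0.21. On the scale over all spots these counts were 6 of 15 and 7 of 17, each with a median of -0.01. The 8 synthetases of the multisynthetase complex were all measured, and 7 of them were higher in tumour 2 (median 0.30, range -0.12 to 0.71), or 4 of 8 on the scale over all spots (median 0.07). Outside the complex, 5 of 9 cytosolic enzymes by accession were higher, with a median of 0.21, or 3 of 9 on the scale over all spots. That the complex differs from the other enzymes was not tested.

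Within the complex, Mars, the methionyl-tRNA synthetase that also charges the initiator tRNA, stood at -0.34 in tumour 1 and 0.37 in tumour 2. Its difference of 0.71 (1.64-fold) was the widest of the complex, and rests on 1 probe. On the scale over all spots it was 0.49, below 1.5-fold. A further Mars probe carried an outlier flag, with a difference of 3.59, and was not used. Kars, the lysyl-tRNA synthetase of both compartments, had a level of 2.61 in tumour 1 and 3.14 in tumour 2. That is a difference of 0.53 at 1 probe. Rars, for arginine, was at 0.01 and 0.47, a difference of 0.46. Both lay above the repeat-spot SD and below 1.5-fold.

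The other members of the complex differed less. Eprs joins glutamate and proline to their tRNAs in a single protein. An Eprs probe near a flag had 0.77 and was not used. The 3 Eprs probes away from flags gave differences of 0.06 to 0.12, so at these the tumours were alike to within the spot error. Lars, the leucyl-tRNA synthetase that also senses leucine for mTORC1, was similarly even over 3 probes, with differences of 0.20 to 0.21. Dars, for aspartate, gave 0.22 and 0.55 at 2 probes (gene difference 0.39). Iars, for isoleucine, was split: its mRNA probes gave 0.67 and 0.12 and a RIKEN clone probe -0.29. Qars, for glutamine, was split too, with 0.14 at an mRNA probe (levels 4.60 and 4.74) and -0.38 at a clone probe (levels -3.73 and -4.11), which left the only complex member lower in tumour 2 at -0.12.

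Outside the complex, the widest difference was that of Wars, the tryptophanyl-tRNA synthetase. Its 1 usable probe had a processed signal of 69.4 in tumour 1 and 148.8 in tumour 2 (levels -3.84 and -2.60). The difference of 1.24 (2.37-fold) stood among the dimmest 25% of genes, where 4.13% were at least 2-fold higher in tumour 2. It was 0.74 under another background correction. The flagged Wars probe had signals of 315 and 4247 and was not used.

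The transcript of Vars, measured by the probes named Vars2, was higher in tumour 2 at both of them. The first probe read 0.06 in tumour 1 and 0.95 in tumour 2, the second -0.22 and 0.89. The differences of 0.89 and 1.11 give 1.00 for the gene, just short of 2-fold. Both probes lay away from flags among neighbours whose median differences were -0.06 and -0.13.

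Gars, the glycyl-tRNA synthetase of both compartments, stood at 1.18 and 1.39, a difference of 0.21 that did not exceed the spot error. Yars, for tyrosine, had levels of 1.40 and 1.73 and a difference of 0.33. Aars, the alanyl-tRNA synthetase, gave 0.31 at its mRNA probe (levels 4.39 and 4.69). Its clone probes gave -0.32, 0.14 and 0.57, so its gene difference of 0.22 comes from probes that disagree in direction. Another Aars mRNA probe, near a flag, had 4.02.

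Of the cytosolic members, 4 of 15 by name (Hars, Cars, Tars and Qars) were higher in tumour 1, or 9 of 15 on the scale over all spots. Hars, the histidyl-tRNA synthetase, had the lowest difference, -0.47, but its 2 probes parted. The mRNA probe gave 0.15 (levels 2.38 and 2.54) and a RIKEN clone probe -1.09 (levels -1.23 and -2.32), 2.13-fold higher in tumour 1. Cars, for cysteine, was at 2.78 and 2.61, a difference of -0.17 at 1 probe. A Cars probe near a flag (0.38) and a flagged one (0.55) were higher in tumour 2 and were not used. Tars, for threonine, gave -0.18 and 0.08 at 2 probes. For Hars the direction thus depends on the probe, and for Cars and Tars the gap did not exceed the spot error.

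**Figure D2:**
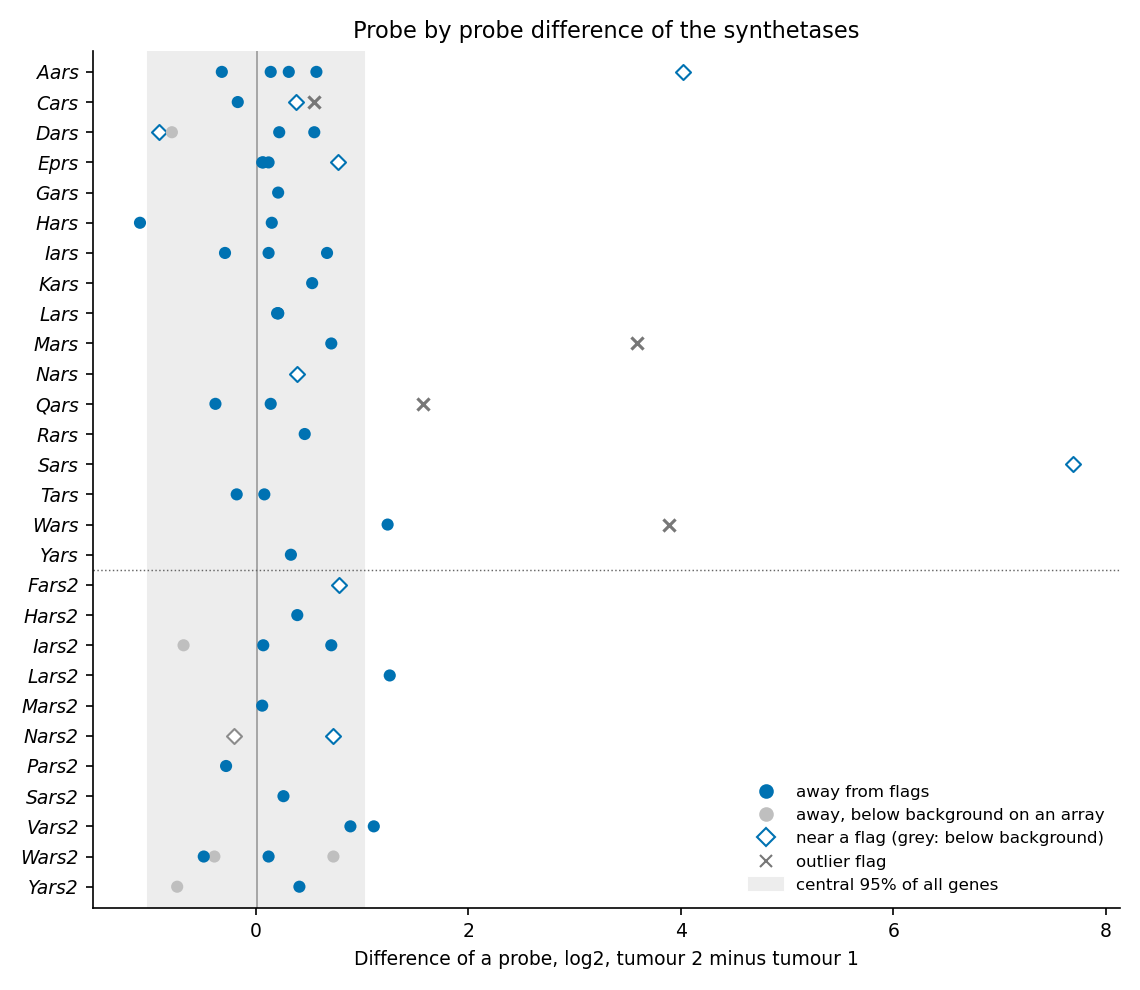
Difference of each probe (x axis, log2, tumour 2 minus tumour 1) for the synthetases found by name, cytosolic above the dotted line and mitochondrial below. Filled circles are spots away from flags (grey when below background on an array), diamonds lie near a flag, crosses carry an outlier flag, and the band is the central 95% of all genes (-1.01 to 1.02). The points beyond 1.5 are a flagged spot or lie near a flag.

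The mitochondrial names gave 9 measured members, 7 of them higher in tumour 2, with a median of 0.39. By accession there were 12, of which 8 were higher, with a median of 0.26. On the scale over all spots these counts were 6 of 9 (median 0.17) and 7 of 12 (median 0.04). Lars2, the mitochondrial leucyl-tRNA synthetase, had the widest mitochondrial difference among spots away from flags. Its probe read 5.13 and then 6.40 in tumour 2, so the difference was 1.26 (2.4-fold), among the brightest 25% of genes, where 1.05% were at least 2-fold higher in tumour 2. Neighbouring spots had a median difference of -0.09. Of the ribosomal RNA, 2 probes were also higher in tumour 2, with signals of 168 and 261 at one (0.78) and 4440 and 14000 at the other (1.80). Whether ribosomal RNA had a part in the Lars2 signal was not tested.

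The remaining mitochondrial enzymes lay closer together. Yars2, for tyrosine, was at 0.22 and 0.63, a difference of 0.41. Iars2, for isoleucine, gave 0.07 at a bright mRNA probe and 0.71 at a dim clone probe whose neighbours had a median difference of 1.75, so the gene value of 0.39 leans on the second. Sars2, for serine, was at -1.65 and -1.39 (0.26). Of the others, Mars2, for methionine, showed hardly any gap, with -1.80 and -1.74 (0.06). Pars2, for proline, was at -2.10 and -2.39 (-0.28). Wars2, for tryptophan, gave 0.12 and -0.49 at 2 probes, so its value of -0.18 has no settled direction.

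Accessions added mitochondrial enzymes that the names missed. The transcript of Hars2, for histidine, was dim and higher in tumour 1, with levels of -3.59 and -4.16 and a difference of -0.57. Hars2 and Hars are adjacent protein-coding genes in RefSeq, and these were the lowest mitochondrial and cytosolic values. That of Hars (-0.47) came from an mRNA probe at 0.15 and a clone probe at -1.09. The transcript of Vars2, for valine, gave 0.28, and 1.37 at a probe near a flag that was not used. Cars2, for cysteine, gave 0.40 at a clone probe, while another clone probe, near a flag and not used, had -0.37. Tars2, for threonine, gave 0.26, and Ears2, for glutamate, -0.14 at a dim clone probe. The mRNA probe of Ears2, near a flag, had a difference of 6.77, with signals of 3.62, not well above background, in tumour 1 and 357.5 in tumour 2. Farsa, the catalytic subunit of cytosolic phenylalanyl-tRNA synthetase, gave -0.15, and 0.74 and 0.00 at probes near flags that were not used. The probe named Hars2, that of Dtd1, gave 0.39.

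Both the cytosolic and the mitochondrial enzyme of the list were measured for 9 amino acids. In 6 pairs both differences had the same sign, and in 3, those of cysteine (-0.17 and 0.40), threonine (-0.05 and 0.26) and tryptophan, opposite signs. This count depends on the scale. On the scale over all spots the isoleucine (-0.11 and 0.17), leucine (-0.02 and 1.04) and methionine (0.49 and -0.17) pairs had opposite signs too. The values below are on the scale over the spots used. In the valine and tryptophan pairs the cytosolic member had the wider difference (1.00 against 0.28, and 1.24 against -0.18). For leucine it was the mitochondrial one (0.21 against 1.26). The tyrosine pair was close (0.33 and 0.41), and the histidine pair gave -0.47 and -0.57, the first from Hars probes of opposite direction. The isoleucine pair gave 0.12 and 0.39, and the methionine pair 0.71 and 0.06.

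For 4 members, Sars, Nars, Fars2 and Nars2, the only spots lay near flags. Sars, the cytosolic seryl-tRNA synthetase, had a signal of 211 in tumour 1 and 39360 in tumour 2. Its difference was 7.69. Only the mRNA probe of Ears2, also near a flag, came near it among the members' probes. The Sars spot lay among the flagged bands of the first array. The median difference of its neighbours was -0.26, a value that describes the block and not single spots. The part of the bands in the Sars difference was not tested. Nars, for asparagine, gave 0.39, Fars2, for phenylalanine, 0.78, and Nars2, for asparagine, 0.73 at the probe above background. With these spots kept, 28 of 28 members were above background on both arrays, against 65.7% of all genes, and 19 were higher in tumour 2, against 35.3%. By accession, Rars2 (1.99) and Aars2 (-0.20) also had spots near flags only, and Farsb only a flagged one.

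**Figure D3:**
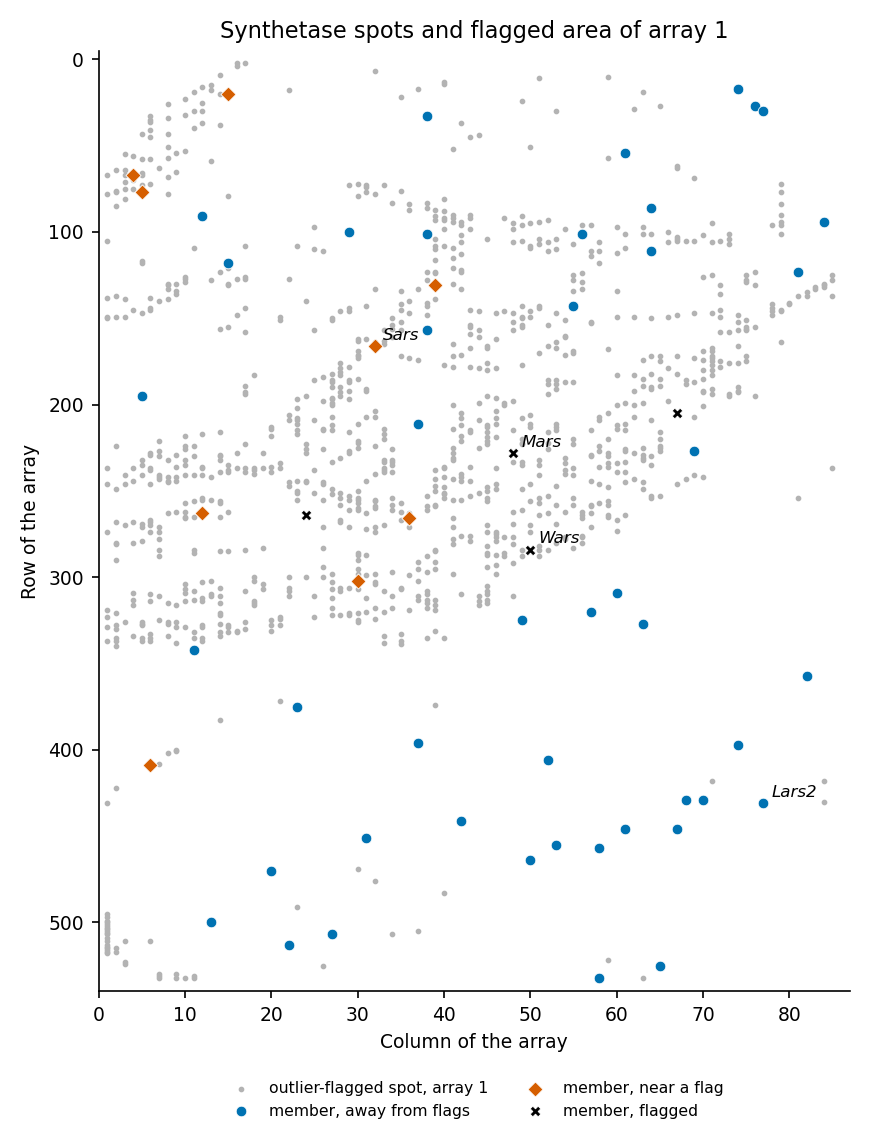
Position of the synthetase spots on the array (column and row numbers, row 0 at the top), with outlier-flagged spots of the first array as small grey points. Synthetase spots away from flags are blue circles, near a flag orange diamonds and flagged black crosses. Flagged spots form bands above row 338, where the Sars spot and the flagged Mars and Wars spots lie, whereas the Lars2 spot lies below them.

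Probes of one gene often disagreed, among all genes as well as among members. Of 11 members with several detected probes, 5 had all probes in the same direction, against 57.7% of 3609 such genes. Hars was the 1 member whose probes lay at least 2-fold apart, against 10.2% of such genes. The kind of probe moved with the direction. Of 30 detected member probes with a RefSeq mRNA accession 26 were higher in tumour 2 (median 0.21), against 54.7% of all such probes. Of 7 detected RIKEN clone probes 3 were (median -0.29), against 33.0% of all such probes.

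Other genes of the pathway were counted on lists assigned by accession or synonym, away from flags. Of the scaffolds only Aimp1 was measured, at 5.09 and 5.24 (0.14). The 9 measured genes of other tRNA charging steps, such as the amidotransferase subunits Gatb (-0.05) and Gatc (0.36), had 6 higher in tumour 2, a median of 0.15 and none past 1.5-fold, or 3 higher on the scale over all spots. Of 12 translation factors 9 were higher (median 0.23), or 7 of 12 on the scale over all spots (median 0.01). Eef2, which moves the ribosome along the mRNA, went from 1.54 to 2.71 as the median level of its probes, with a median probe difference of 1.01. Eif4g1, the scaffold of the cap-binding complex, had 0.67, and Eif2s1, the subunit that stress kinases phosphorylate, -0.68 at 1 probe. With all unflagged spots Eif2s1 had 3 probes, a median level of 1.52 in both tumours and a difference of -0.15. Mitochondrial ribosomal proteins lay near the middle of all genes, with 7 of 11 higher and a median of 0.05, or 4 of 11 on the scale over all spots.

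The 10 measured synthetases on a list of known Atf4 targets had 8 members higher in tumour 2 and a median of 0.21, or 3 higher and a median of -0.02 on the scale over all spots. The 21 measured genes of the wider amino acid response had 17 higher, 10 of them at least 1.5-fold where 8.90% of genes assigned by accession were, and a median of 0.47. With all unflagged spots kept, 15 were higher and 6 at least 1.5-fold, against 9.33% of genes, while 2 were at least 1.5-fold lower. On the scale over all spots 16 were higher and 4 at least 1.5-fold, against 4.37%. Ddit4, an mTORC1 inhibitor, went from 5.77 to 6.96 (1.19). Among the amino acid transporter genes, Slc7a1 (0.90), Slc3a2 (0.84) and Slc7a5 (0.80) were past 1.5-fold, while Slc1a5 had 0.33 and Slc7a11 -0.26. The stress regulators Trib3 (0.82), Sesn2 (0.80) and Ddit3 (0.59) were also past 1.5-fold, as were Chac1 (0.77), which degrades glutathione, and the serine pathway enzymes Phgdh (0.75) and Shmt2 (0.62). Psat1 (0.08) and Psph (0.26), also serine pathway enzymes, were below it. Asns, the asparagine synthetase, had 0.42, and Eif2ak4, the kinase that senses uncharged tRNA, -0.67. The only Atf4 spot carried an outlier flag and gave no value.

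Interferon genes were counted in the same way. Of 11 measured, 10 were lower in tumour 2, 6 of them at least 1.5-fold where 8.83% of genes assigned by accession were, and the median was -0.61. The antiviral gene Ifit1 stood at -3.40 and -4.31 (-0.91), Usp18, which damps interferon signalling, at -2.64 and -3.55 (-0.91), and the transcription factor Irf1 at 2.73 and 1.96 (-0.77). Oas1a (-0.84), Gbp2 (-0.77) and Ifit3 (-0.61) were the other 3. Irf7 alone was higher, at 0.66. Whether interferon had a part in the Wars difference was not tested.

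**Figure D4:**
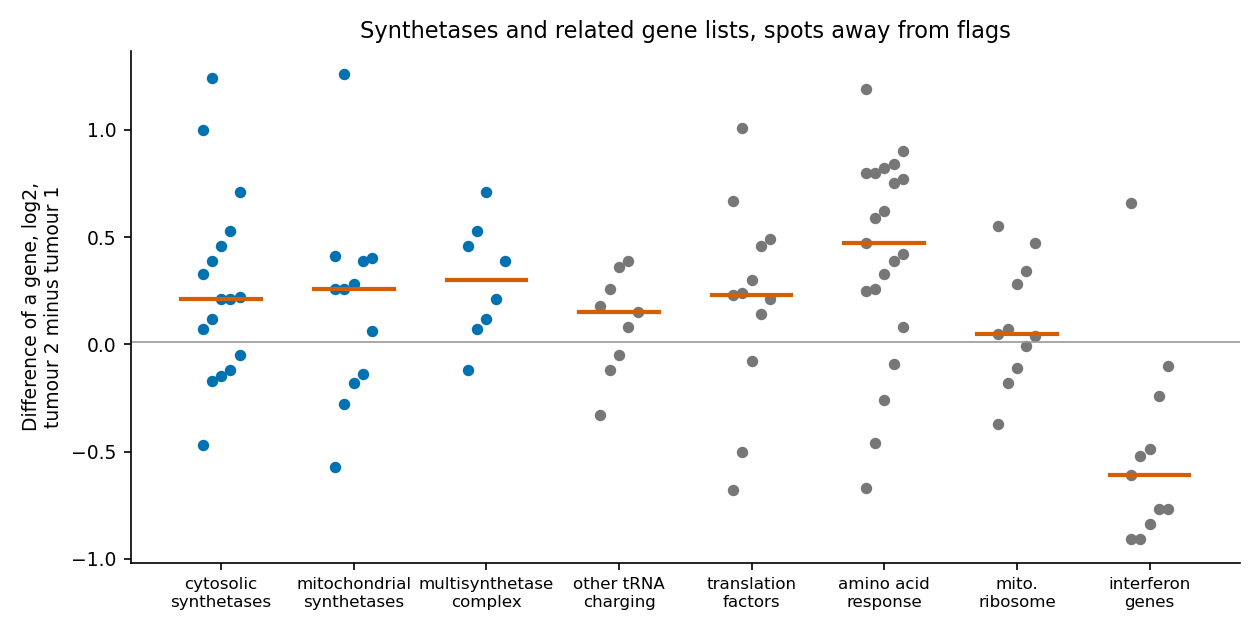
Difference of each gene (y axis, log2, tumour 2 minus tumour 1; 1 point per gene, spots away from flags) in the synthetase groups, in blue and assigned by accession, and in related lists, in grey. Orange bars are list medians and the grey line is the median of all genes, 0.01. The complex is a subset of the cytosolic group. Synthetase medians lie between 0.21 and 0.30, the amino acid response at 0.47 and interferon genes at -0.61.

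Markers of cell types differed between the tumours too. Of the 7 skeletal muscle markers with spots away from flags, 6 were above background in both tumours and Myf5 in neither. The summed signal of these 6 was 0.905 and 1.40 times the 75th percentile in tumours 1 and 2. Des (1.24) and Myh3 (1.07) were the widest of the 4 that were higher in tumour 2, Myod1 (-0.35) and Myf6 (-0.48) were lower, and the median was 0.19. The remaining listed marker, Chrna1, had unflagged spots near flags only and is in neither the sum nor the median. With all unflagged spots Chrna1 stood at 5.29 and 4.81 (-0.48). On those spots 3 of 7 muscle markers were higher in tumour 2 (median -0.07). The 5 fibroblast markers were all lower in tumour 2 (107 and 96.3, median difference -0.34), as were the 5 endothelial markers (3.64 and 2.10, median -0.45). Of 4 macrophage markers 1 was higher (2.79 and 2.59). Among keratinocyte markers Krt5 (3.55) and Krt14 (3.64) were higher in tumour 2, and Krt1 was at -0.09 (these 3 markers summed 0.124 and 1.01). Trp63 was not above background in either tumour. Away from flags Krt10 was above background in tumour 2 only, and it is not in the sum. With all unflagged spots Krt10 was above background in both tumours, at 1.53 and 1.46 (-0.07). In whole tumours fewer cells of a type and less RNA per cell cannot be told apart, and the part of cell makeup in the synthetase differences was not tested.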

How the data were processed

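The 2 single-colour (Cy3) Agilent arrays, 1 per tumour, share 1 slide. Per the labels' protocols, RNA was extracted with Trizol and 1 µg was labelled. The deposited intensity values were written by Agilent Feature Extraction (9.1.3.1 in the file headers, 8 in the submitters' processing notes). The deposited value table equalled the processed signal intensity at all 45018 spots, on a linear scale with no centring (medians 63.3 and 67.5).

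Levels are log2 processed signals less the array's 75th percentile over the spots kept (995 and 901.9). Outlier-flagged spots were left out, as were their neighbours up to 2 rows and columns away on array 1, and those of spots with local background above 100 on array 2. Detection required 50% of a probe's spots to be well above background on both arrays. A gene's level and difference are medians over its detected, unsaturated probes, taken separately. Names came from the file of tumour 2, since 47 spots differed in name between the files, none of them a member's. Accessions of 55.7% of 41174 probes matched RefSeq (GRCm38.p6).

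No test was run, since each side holds 1 tumour. Members and lists were chosen with earlier results of these data known. The text could name any member, list genes at least 1.5-fold apart and the first 3 of each list. Asns, Psat1, Psph, Slc1a5, Slc7a11, Myf5, Myf6, Chrna1, Krt10, Krt1 and Trp63 were singled out after their values were seen. Alternatives covered the spots used, background correction (normexp, offset 50), scaling (quantile, detected median, loess with span 0.3), dim probes and probe choice; identity by accession, and a 75th percentile over all spots, were added after the data were seen. Software was limma 3.58.1 under R 4.3.3, and Python 3.11.15. The procedure was tested on simulated data.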

Additional observations from a re-analysis of the deposited data

How the results depend on the processing

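The median difference of the members stayed 0.18 to 0.32 above that of all genes under all 12 alternatives that give a difference, while the median of all genes ranged from -0.22 to 0.04. This gap could not change with the 75th percentile over all spots or the detected median, which shift every difference alike. The median of all genes was lowest with the 75th percentile over all spots, where 1 member, Hars, was at least 1.5-fold higher in tumour 1. With all unflagged spots, 19 of 28 members were higher in tumour 2 against 35.3% of all genes, and 1 member, Hars, was at least 1.5-fold higher in tumour 1. In the lower rows only, 15 members were detected, 11 of them higher in tumour 2 and 11 above the median of all genes, and 1 (Hars) was at least 1.5-fold and 1 at least 2-fold higher in tumour 1, since its mRNA probe lies above these rows. Among the brighter 50% of probes, 1 member was at least 2-fold higher in tumour 2, since Wars is too dim. With no filter on dim probes the mitochondrial median moved to 0.07. Of 273 values of single members, 255 moved by less than the repeat-spot SD and 18 by more. The sign, as rounded, changed in 18 values of 11 members, none of them among the 4 members past 1.5-fold: Aars reached -0.31 in the lower rows, Hars 0.15 and Qars 0.14 at the brightest probe, the name Hars2 -0.57 by accession, Wars2 0.12 at the brightest probe and Yars2 -0.17 with no filter, and Eprs, Gars, Iars, Lars and Mars2 lay between -0.17 and -0.01 on the scale over all spots. With either tumour left out 24 members were detected, which could not differ since all 24 were detected on both arrays. No paired analysis was possible because the samples form 1 group. A single array per tumour limits every value, and differences of dim members rest on signals near background.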
